A study of Schizosaccharomyces pombe with 7 samples.

Results

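Dimethylation of histone H3 at lysine 9 (H3K9me2) was mapped along the genome of wild-type (WT) fission yeast, Schizosaccharomyces pombe, with the 3 of 7 arrays of the series that carry WT H3K9me2 ChIP DNA. They were chosen by their labels alone, 1 array in each of series 1, 2 and 3. All 3 came from cells of genotype WT, for which the labels give no allele, marker or mating type, in logarithmic growth in rich medium (YEA) at 30 °C and fixed with 3% paraformaldehyde. Chromatin had been sheared to 500 to 1000 bp and precipitated with an H3K9me2 antibody. ChIP DNA was labelled with Cy5 and whole-cell extract DNA with Cy3 after random-primed PCR, with no dye swap, and hybridised to probes of 60 nt spaced at about 300 bp. The other arrays held H3K9me2 from fft3∆ cells (2) and from UV21 cells (1), and Fft3-GFP from WT cells (1), which had been held at 18 °C for 6 h and treated with 10 mM dimethyl adipimidate. No array without antibody was analysed here, so the background of each value is the whole-cell extract on the same array. Nothing in the labels says whether the 3 arrays came from separate cultures, and the p-values below measure only the spread between these 3 samples.

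H3K9me2 is written by Clr4, the only histone H3 lysine 9 methyltransferase of fission yeast, and is bound by chromodomain proteins such as Swi6, Chp1, Chp2 and Clr4 itself, which lets a domain spread from its nucleation site into neighbouring chromatin. RNA interference targets Clr4 to the pericentromeric dg and dh repeats, to related repeats at the mating-type region and to telomere-linked helicase genes beside the telomeres. Small islands also form over some meiotic genes whose transcripts are removed by the RNA-binding protein Mmi1 in growing cells. Known borders of large domains are tRNA genes, inverted repeats and the edge between pericentromeric repeats and the central core, where the histone H3 variant CENP-A replaces much of H3.

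All values are the log2 ratio of the processed Cy5 signal to the processed Cy3 signal, centred on the median of the array, so 1 means 2 times the ratio of the median probe. A probe was kept if it was a uniform feature on all 3 arrays and well above background in Cy3, which left 36042 of 41551 probes. A domain is a run of kept probes whose 5-probe running median of the 3-array mean was at least 1, with runs up to 2 kb apart joined and at least 4 probes. Its height is the mean over its probes on 1 array. Domains, heights and borders are descriptions of these arrays, and heights of different domains come from different probes. Positions are those of the array (chr1, chr2, chr3, a mat contig and the pNSU contigs), and no header or label gives their genome build. Gene names come from the assembly ASM294v3, and coordinates of that assembly are given with its chromosome names I, II and III.

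The 63 domains covered 1147 kb, and their heights averaged over the arrays ran from 0.90 to 5.26. On the 3 chromosomes, 55 domains covered 8.46% of the array's sequence. chr1 had 20 domains over 6.79% of its length, chr2 had 20 over 9.12%, and chr3, the shortest chromosome, had 15 over 11.04%. The median width was 3.36 kb, and a few wide domains made up most of the covered length. The 6 sides of the pericentromeres held 453.66 kb, or 39.5% of the domain length, and 13 domains near the ends of chr1 and chr2 held another 32.4%. The mating-type region was 75.06 kb wide, the mat contig 41.16 kb, and the 7 pNSU domains together 45.72 kb. The 17 domains on the chromosome arms were 1.26 to 5.76 kb wide and made up 3.85% of the domain length.

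By height, which averages over the plateau and slopes of a domain, the highest domains lay on the pNSU contigs. Parts of wide domains were higher, with a mean of 7.27 at 10 to 20 kb left of the core of chr3. The lowest of the groups compared were copies of the retrotransposon Tf2. Height is the mean log2 ratio over the array median in all of the following. The pNSU domains together had a height of 4.72 on series 1, 4.87 on series 2 and 4.52 on series 3, and the mat contig had 3.82, 3.91 and 4.24. Among the groups compared, the right end of chr1 followed at 3.82, 3.06 and 4.77, and the left end of chr1 at 3.504, 3.25 and 3.63. Arm domains other than Tf2 were not among these groups, and the highest arm domain had a height of 4.95 averaged over the arrays. The 6 sides of the pericentromeres were close to each other, with means between 2.48 and 3.06. The mating-type region had 1.99, 2.08 and 2.57, and the Tf2 copies 0.61, 0.71 and 2.09. The groups are read by different probes, some of them saturated in Cy5 on series 3, so their order is a description. In 5 of the 15 pairs of neighbours in it the difference had the same sign on all arrays and was larger than its SD. These were the pNSU contigs over the mat contig, the left end of chr1 over the left side of pericentromere 1, that side over the left side of pericentromere 3, the left over the right side of pericentromere 3, and the mating-type region over Tf2. The other 10 pairs did not differ beyond their spread. The exact 2-sided sign-flip permutation test over 3 arrays cannot go below p = 0.25, the value of all 5 pairs, so no pair passed a test.

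**Figure D1:**
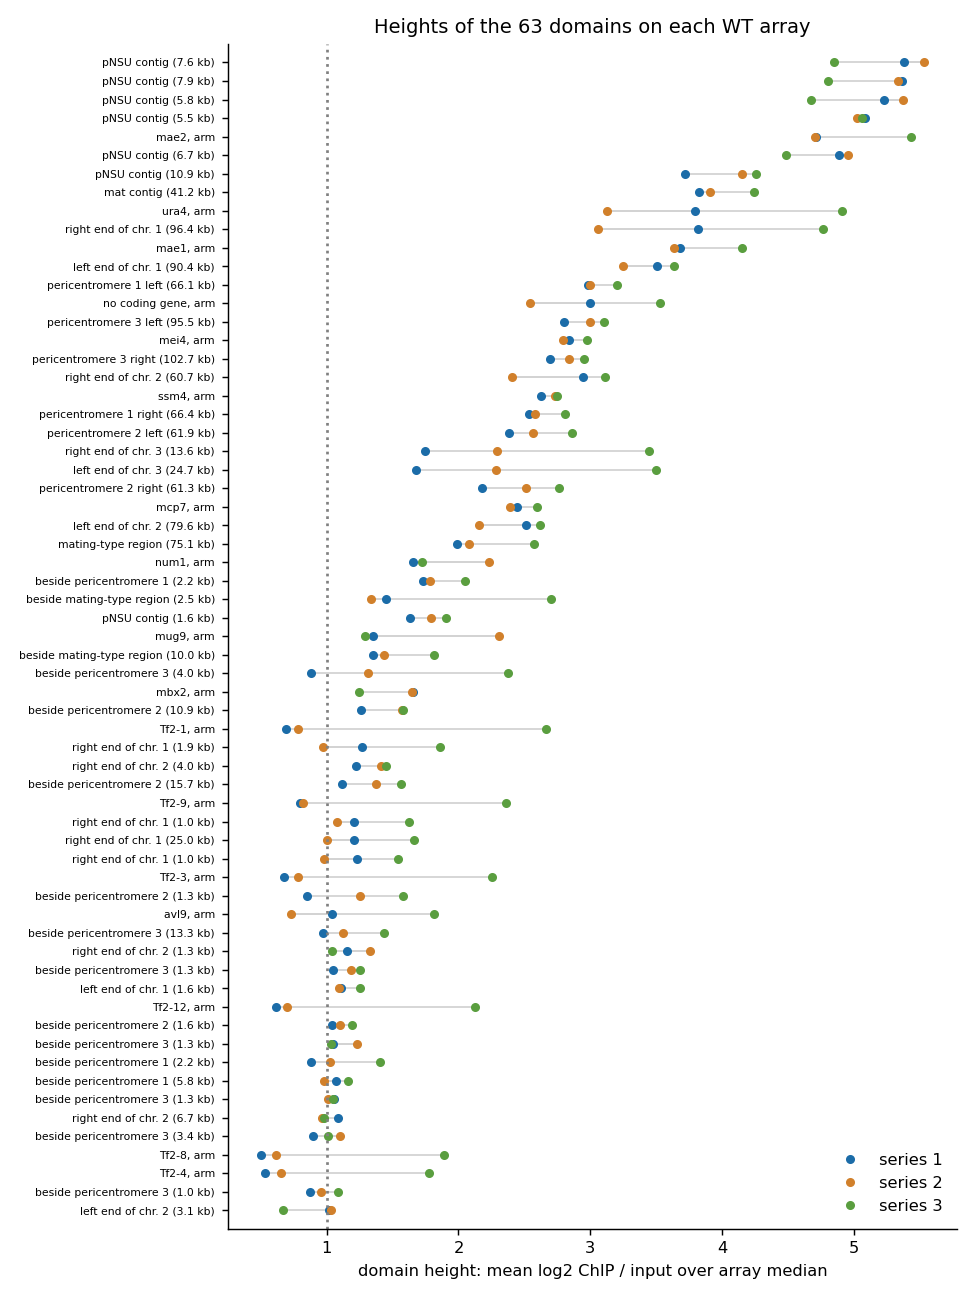
Height of each of the 63 domains (mean log2 of ChIP over input, relative to the array median) on the arrays of series 1, 2 and 3, ordered by the mean, with the domain's place or leading gene and its width. The dotted line is the level of 1 used to find domains. Most points of series 3 (green) lie to the right, by most over the Tf2 copies and the ends of chromosome 3.

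Windows of 2 kb were also tested for a mean above the array median with limma and Benjamini-Hochberg adjustment, calling those with an adjusted p under 0.05 and a mean of at least 1. This called 545 of 6230 windows (8.75%), and 530 of the 545 lay in domains, which is largely fixed by the shared level of 1. No window was called at -1 or below, although 1324 windows were below the median at an unadjusted p under 0.05. The same rule called 340 of 4862 genes (6.99%), 320 of them in domains. All 3 arrays were at least 1 in 469 windows (7.53%) and in 286 genes (5.88%). To measure domains on an array that had not chosen them, they were also called on 2 arrays and measured on the remaining one. Without series 1, 2 or 3 there were 65, 65 and 64 domains, of which 43, 45 and 59 had a height of at least 1 on the array left out. Every domain wider than 13 kb did so (15, 15 and 17 domains), with a lowest height of 1.17, so the domains that failed were narrow ones.

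At the pericentromeres a steep plateau over the repeats was set on a broad, sloping skirt over unique genes. The repeats flank a central core and are transcribed into the small RNAs that direct Clr4. The peak of the running median was 7.47, 8.01 and 6.91 on series 1, 2 and 3 in the left side of pericentromere 1 and 7.85, 8.25 and 6.92 in the left side of pericentromere 3. At both of these peaks series 3 was the lowest array, and 70.0% to 100% of its probes were saturated in Cy5 in the bins 10 to 20 kb left of the cores of chr1, chr2 and chr3. In those bins the ratios were 6.07, 5.98 and 6.00 on chr1, 6.56, 6.81 and 6.53 on chr2, and 7.46, 7.62 and 6.74 on chr3. The plateaus were thus high on every array, and the values of series 3 at saturated probes are lower bounds.

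Between the repeats each centromere had a narrow gap with little H3K9me2. On chr1 the core at chr1:3769861-3773400 had mean ratios of 0.52, 0.63 and 1.19 over 9 probes. On chr2 the core at chr2:1622461-1628100 had 0.45, 0.78 and 1.08 over 18 probes, and on chr3 the core at chr3:1098661-1105200 had 0.45, 0.61 and 0.98 over 13 probes. The cores were above the array median on every array, series 3 was the highest in all of them, and the 10 kb on either side had 3.12 to 6.81. The single Fft3-GFP array was below its median at the cores, at -0.97, -1.16 and -1.03. Since these core limits were read from the same probes, the gap is a description and no test was made.

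The ends of the inner plateau were compared with the annotation at a level of 4, which need not be where the fall is steepest. Most of these ends had tRNA genes within 3 kb. On the left of pericentromere 1 the level was crossed at 3750601, 3750301 and 3750001 on series 1, 2 and 3, a spread of 0.6 kb. The crossing lay in per1 (mean 4.50), 1 tRNA gene for phenylalanine was within 3 kb, and the next gene outward, rpl1002 for a ribosomal protein, was at 1.71, 2.03 and 1.97. The fall was thus from above 4 to about 2 in rpl1002 on every array, but the low level did not last. At 27 kb left of the middle of the core the 2 kb bin had 2.09, 2.21 and 2.50. At 31 kb it had 3.22, 3.08 and 3.59. On the right of pericentromere 1 the crossing at 3789360, 3788760 and 3789660 had no annotated tRNA gene within 3 kb, and the values fell less abruptly, from 4.09 in rad50, a DNA repair gene, to 3.43 in sdh1, a succinate dehydrogenase subunit. The left border of pericentromere 2 (3-array mean 1601401) had 12 tRNA genes within 3 kb and the right border (1645560) had 7. The genes outside were rpb1, the largest subunit of RNA polymerase II, at 2.76, and the transcription factor gene yox1 at 3.70. The borders of pericentromere 3 lay at 1068001 with 6 tRNA genes and at 1144560 with 1. Next to the left one, the checkpoint kinase gene chk1 had 3.59, 3.52 and 3.92. The positions of these borders differed between arrays by 0.6 to 7.8 kb, with the plateau widest on series 3 at all borders but the right one of pericentromere 3, where series 1 and 3 crossed at the same probe.

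Beyond the plateau H3K9me2 declined gradually over protein-coding genes. On the left of pericentromere 1 the means of 10 kb bins counted from the core fell from 6.01 at 10 to 20 kb to 2.84 at 20 to 30 kb, 2.06 at 40 to 50 kb and 1.21 at 60 to 70 kb, and were 0.22 at 100 to 110 kb. The right side had 4.78, 2.65, 2.03, 1.06 and 0.39 at the same distances. On chr3 the skirt reached farthest, with 1.03 at 90 to 100 kb on the left and 1.12 at 110 to 120 kb on the right. Outer borders at the level of 1 lay at 3703801 and 3839760 for pericentromere 1, 1560601 and 1689360 for pericentromere 2, and 1003201 and 1207860 for pericentromere 3. The 6 sides were thus 61.26 to 102.66 kb wide, with both sides on chr3 wider than any on the other chromosomes. The outer borders fell among protein-coding genes. Within 3 kb, 2 tRNA genes lay at the left border of pericentromere 1, 1 at the right border of pericentromere 3 and 0 at the others. How often a tRNA gene lies that near elsewhere on the chromosomes was not measured. The left border of pericentromere 1 lay in ubr11, a ubiquitin ligase gene (1.03, 0.99 and 1.39), that of pericentromere 2 in app1 (1.11), and that of pericentromere 3 in the formin gene for3 (1.0, 1.12 and 1.15). On the right sides, the pyruvate kinase gene pyk1 lay outside pericentromere 1 at 0.15, 0.87 and 0.90, and the aldolase gene fba1 outside pericentromere 2 at 0.01, 0.59 and 1.20. Both were low on series 1. At these shallow slopes the border of 1 array could lie far from the others, by 28.8 kb on the right of pericentromere 2 and 24 kb on the right of pericentromere 3, where series 3 stayed above 1 for longer, while the left border of pericentromere 3 moved by only 0.3 kb.

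**Figure D2:**
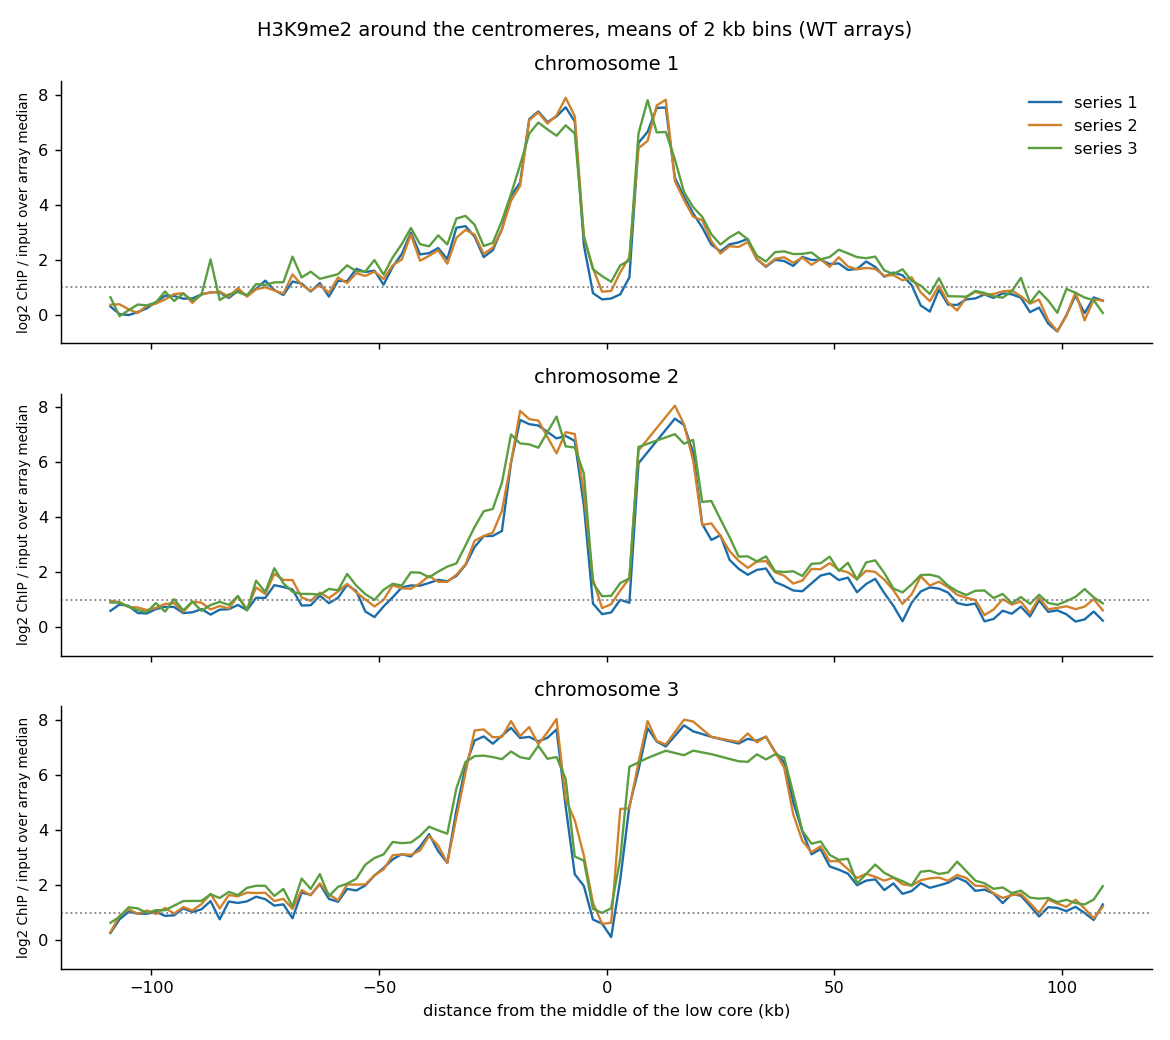
Mean log2 ChIP over input relative to the array median in 2 kb bins, against the distance in kb from the middle of the low core, for the 3 centromeres and the arrays of series 1, 2 and 3. Each centromere shows a low core (0.45 to 1.19), plateaus above 6 on both sides and a decline to about 1 within 60 to 120 kb.

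By height, the mean over all kept probes of the domain, the left side of each pericentromere was higher than the right side on every array. The left-minus-right difference in height was 0.45, 0.42 and 0.40 on chr1, 0.20, 0.05 and 0.10 on chr2 and 0.10, 0.15 and 0.16 on chr3. The chr1 difference was the largest on every array, and each mean difference exceeded the SD of its difference (exact p = 0.25, the smallest possible). With probes saturated on series 3 left out, the order turned on chr1, at means of 2.18 left and 2.27 right, and on chr3, at 2.15 and 2.20. Kept probes were also unequally spread over the sides. In every 10 kb bin out to 100 kb from the core of chr3, the right side had the higher mean. At 10 to 20 kb it was 7.27 over 15 probes on the left and 7.48 over 4 on the right. At 30 to 40 kb it was 3.57 over 32 and 5.73 over 24. On chr2 the left was higher up to 30 kb and the right at 30 to 60 kb. Small domains lay beside the pericentromeres, 14 in all, with heights from 0.97 to 1.85 and a total of 64.74 kb. Of these, 7 were at least 1 on all arrays. They held isp4 (mean 1.87), an oligopeptide transporter gene, and atf1 (1.34), a stress transcription factor gene, left of pericentromere 2. They also held sre1 (1.66), the sterol-responsive transcription factor gene, on its right.

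Both ends of chr1 carried high H3K9me2 that declined inward. Distances here count from the end of the array's contig, which need not be the end of the chromosome. On the left the first 10 kb had 6.71, 6.68 and 6.35, and tlh1, a telomere-linked RecQ-type helicase gene, had 6.78, 6.78 and 6.37 over 16 probes (mean 6.64, SE 0.107, limma adjusted p = 1.3e-06). Series 3 was the lowest array in that bin, and with 96.2% of its probes there saturated in Cy5 its value is a lower bound. From there the means declined to 4.48 at 30 to 40 kb, 1.88 at 50 to 60 kb and 0.89 at 90 to 100 kb. The domain ended at 90.66, 90.96 and 90.36 kb on series 1, 2 and 3, in str3, an iron-siderophore transporter gene (1.25, 1.31 and 1.22). It was the most reproducible of the outer borders of the wide domains on chr1, with a spread of 0.6 kb. A separate step lay inside it: the array values were above 4 again at SPAC977.14C (5.46, 4.71 and 6.16), whose end at 61560 was the last crossing of 4 on every array, whereas the next gene, SPAC977.15, was at 1.52, 1.48 and 1.74.

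At the right end of chr1 the arrays differed widely beyond the outermost 10 kb. Its first 10 kb had 6.47, 6.35 and 6.22 on series 1, 2 and 3, but all of these probes were saturated in Cy5 on series 3, whose value is a lower bound. At 30 to 40 kb the means were 5.26, 3.57 and 6.84, and at 40 to 50 kb they were 3.82, 2.64 and 6.76, so that series 2 was the lowest and series 3 the highest. The range at 40 to 50 kb was more than 4 log2 units. Cy5 was saturated at 51.7% of these probes on series 3, and a ratio with Cy5 at its ceiling is a lower bound. The level of 4 was last crossed at 5532901, 5541301 and 5516701, a spread of 24.6 kb. The cell-surface glycoprotein gene pfl9, close to this border, had 3.42, 2.98 and 5.21. The order of series 2, series 1 and series 3 held in every 10 kb bin from 10 kb to 130 kb from the end. On series 3 the run above 1 was unbroken for 134.16 kb, to 5440501, while series 1 and 2 had a main domain of 96.66 and 96.06 kb and then separate pieces, of which the widest was 24.66 and 24.36 kb. The left end of chr1 showed no such separation, with an SD of at most 0.455 in any 10 kb bin against 2.12 on the right.

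The ends of chr2 were lower than those of chr1, and their inner borders at the level of 1 were close on the 3 arrays. On the left the first 10 kb had 5.66, 4.95 and 5.86, and at 20 to 30 kb the mean had fallen to 2.56. The first 10 kb were saturated in Cy5 on series 3 at all probes. The domain ended at 80160, 79260 and 79560. The last crossing of 4 lay at 15660 on series 1 and 2 but at 77160 on series 3, a spread of 61.5 kb. Just inside lay SPBPB21E7.09 at 3.11, 2.08 and 4.98, high above its neighbours aes1, nearer the telomere (1.16), and SPBPB10D8.01 beyond the border (0.90). On the right the first 10 kb had 5.62, 5.10 and 5.95, with 87.5% of the probes saturated in Cy5 on series 3. A shelf of 2.03 to 2.48 lay between 20 and 50 kb, and the bin at 50 to 60 kb was at 2.12, 1.55 and 2.19. The next bin fell to 0.70, 0.19 and 0.70, so the step was present on all arrays. The domain ended at 4449301, 4449901 and 4449901, a spread of 0.6 kb, at pho1, a phosphate-regulated acid phosphatase gene. pho1 had 1.47, 1.15 and 1.12, whereas pho84, a phosphate transporter gene farther out, had 0.88, 0.41 and 0.82 and was not called. Inside the border fub2 was at 2.06. The right end was higher than the left on every array, by 0.43, 0.26 and 0.49 (mean 0.39, exact p = 0.25, the smallest possible).

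The domains at the ends of chr3 were narrower than the widest domain at each of the other 4 ends. In S. pombe these ends carry the tandem ribosomal RNA genes. The left domain was 24.66 kb and the right one 13.56 kb, neither held a protein-coding gene of the assembly, and no skirt followed. On the left the bins at 0 to 10, 10 to 20 and 20 to 30 kb had means of 2.63, 2.52 and 0.94, and the next was -0.04. The first genes beyond the borders, SPCP20C8.01C and SPCC569.01C, were at 0.44 and 0.12. Heights were 1.68, 2.28 and 3.501 on the left and 1.75, 2.29 and 3.45 on the right. Series 3 was the highest and series 1 the lowest at both ends, with SDs of 0.93 and 0.87. Whole-cell extract signal was high there, at 1.67 and 1.90 log2 units over the median Cy3 on the left on series 1 and 2 but only 0.46 on series 3, where 21.1% of the probes were saturated in Cy3 and 54.4% in Cy5. A ratio with Cy3 at its ceiling is an upper bound. With saturated probes left out the left end had 1.42, 1.74 and 3.36.

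**Figure D3:**
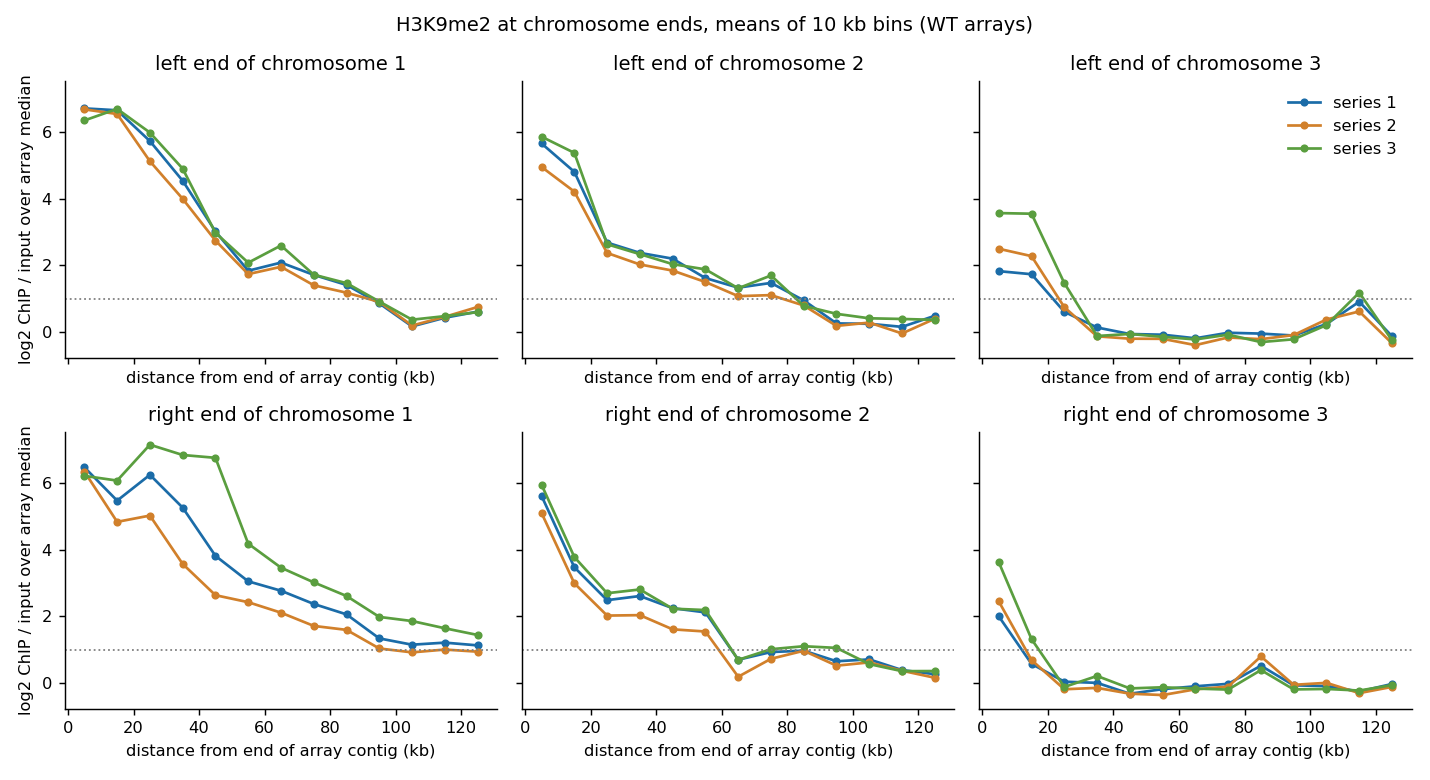
Mean log2 ChIP over input relative to the array median in 10 kb bins, against the distance in kb from the end of the array's contig, for the 6 chromosome ends and the arrays of series 1, 2 and 3. Both ends of chromosome 1 decline over about 90 to 130 kb, the ends of chromosome 2 over 60 to 90 kb and those of chromosome 3 within 30 kb, and series 3 stands above the others at 20 to 60 kb of the right end of chromosome 1 and at both ends of chromosome 3.

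At the mating-type region, H3K9me2 formed a low shelf with a sharp peak. In this region the silent cassettes mat2 and mat3 store the information of both mating types, and a repeat related to the dg and dh repeats lies between them. The listed mat2 genes were not found in ASM294v3, so no position is given for them. The domain ran from 2087701 to 2162760 on chr2. Across it the 5 kb bins between 2090001 and 2105000 had means of 1.54 to 1.68, and the bins between 2130001 and 2140000 had 5.12 and 4.996. Per array these last 2 bins had 4.998 and 4.72 on series 1, 4.68 and 4.59 on series 2, and 5.68 and 5.68 on series 3. A second, narrow peak stood at the expressed cassette: mat1-Mc, a mating-type transcription factor gene, had 5.61, 5.55 and 6.20 on 2 probes (mean 5.78, limma adjusted p = 2.9e-06), and the level of 4 began at 2116201 on all arrays. Cassettes of the same mating type share their sequence, and mat3-Mc had too few kept probes for a gene value, so the cassettes cannot be told apart here. Inside the shelf no gene was low: all 31 genes with values were called, with a median of 1.70, which the level used for the domain largely fixes.

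The left border of the mating-type domain was abrupt and the right one was not. On the left aim21 had 0.86, 1.22 and 1.52, and the next gene outward, rps21 for a ribosomal protein, had -0.08, 0.40 and 0.46. The border lay at 2089201, 2087401 and 2087701. On the right his2, a histidine synthesis gene, had 0.997, 1.19 and 1.64, and SPBC1711.15C had 0.43, 0.76 and 0.92. Right of it a further domain of 9.96 kb held prp16, a splicing factor gene, at 1.55, 1.79 and 2.14. On series 1 and 2 the domain ended at 2161260 and 2163060, while on series 3 both runs were joined to 2177160. Series 3 was the highest array in every 5 kb bin of the domain. The domain's height was 0.54 above the mean of the other arrays on series 3.

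**Figure D4:**
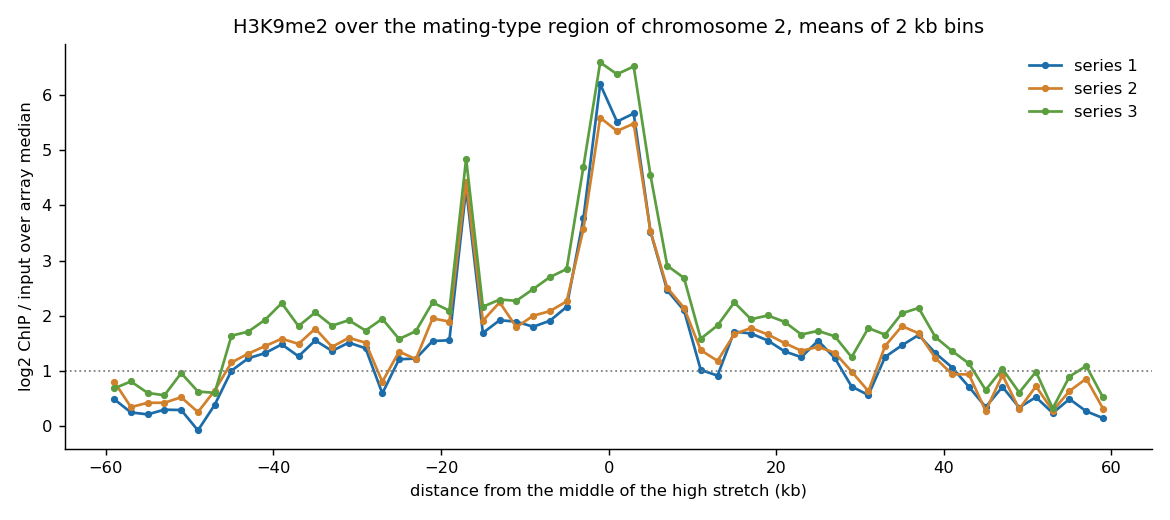
Mean log2 ChIP over input relative to the array median in 2 kb bins across the mating-type region of chromosome 2, against the distance in kb from the middle of the high stretch, for series 1, 2 and 3. A peak above 5 where ASM294v3 places mat3 and a narrower one near -17 kb at mat1 rise from a shelf of about 1.5. Series 3 lies above the others across the shelf.

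In the high stretch the whole-cell extract of series 2 lacked signal at consecutive probes. The Cy3 signal relative to the array median, on the log2 scale, was -5.67, -6.03 and -5.32 at the probes starting at 2133001, 2133301 and 2133601. At the same probes it was -0.82, -0.81 and -0.45 on series 1, and -1.56, -1.48 and -2.44 on series 3. The probe at 2133901, left out by the filters, had -7.60 on series 2. The probes at 2132401 and 2134501, on either side, were at -0.16 and 0.02 on series 2. The log2 ratios of the 3 kept probes on series 2, 4.87, 6.01 and 5.02, thus rest on Cy3 signals far below the median of that array, and what underlies the missing signal was not tested.

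The separate mat contig was above 1 throughout. Its 5 kb bins had means of 2.08 to 2.76 over the first 20 kb, 6.38, 6.81 and 6.55 over the next 15 kb, and 4.77 and 2.90 over the rest. On series 1, 2 and 3 the bin at 25 to 30 kb had 6.53, 7.22 and 6.67 on 5 probes. All of its probes were saturated in Cy5 on series 3. The pNSU contigs carry sequence whose chromosomal place is not given in the sources used here. pNSU65 had heights of 5.39, 5.54 and 4.85, pNSU21 had 5.37, 5.33 and 4.80, and pNSU64 had 5.23, 5.37 and 4.68. On these contigs series 3 was the lowest array, with 52.0% to 78.9% of the probes saturated in Cy5. pNSU70 was at 4.89, 4.96 and 4.49, and pNSU77 at 3.72, 4.15 and 4.26. pNSU71 was not uniform: positions 1 to 5460 had 5.08, 5.02 and 5.06, positions 11401 to 12960 had 1.63, 1.79 and 1.90, and no domain was found between them. pNSU28, pNSU32 and pNSU68, each of 0.36 to 0.66 kb, were too short for a domain of at least 4 probes. On the single Fft3-GFP array, which was precipitated with another antibody, the first domains of pNSU21, pNSU64, pNSU65, pNSU70 and pNSU71 had 1.27 to 1.45.

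On the arms, several single-copy islands lay over meiotic genes. In growing cells Mmi1 binds the RNA of such genes at UNAAAC motifs and directs its removal by the exosome. The motif density of 3 of the 12 listed genes is shown because Mmi1 sites are sequence elements: a window of 150 bases of coding exon with the most TNAAAC on the sense strand, copied from ASM294v3, with each motif in capitals. mei4 (II:1473862-1474011, + strand) and mcp7 (I:578887-579036, + strand) lie in domains. mug8 (I:2446706-2446855, + strand) does not.

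mei4: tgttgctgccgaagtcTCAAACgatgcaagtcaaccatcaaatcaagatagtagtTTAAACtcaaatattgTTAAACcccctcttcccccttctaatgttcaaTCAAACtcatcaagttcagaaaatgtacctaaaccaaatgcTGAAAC

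mcp7: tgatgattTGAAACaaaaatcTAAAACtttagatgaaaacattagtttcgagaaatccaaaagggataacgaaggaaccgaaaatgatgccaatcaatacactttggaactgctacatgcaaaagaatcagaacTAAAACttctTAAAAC

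mug8: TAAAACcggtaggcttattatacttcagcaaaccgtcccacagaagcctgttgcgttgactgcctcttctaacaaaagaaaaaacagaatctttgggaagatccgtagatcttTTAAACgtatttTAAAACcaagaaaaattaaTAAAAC

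mei4 had 5 motifs in its best window, which 0.06% of 5020 genes match or exceed, and the median gene had 1. mcp7, ssm4, num1, mug9, mug8, mug10 and rec8 had 4, as 0.618% of genes do at least. spo5 and crs1 had 3, and spo4 and meu6 had 2. The count did not sort the genes by H3K9me2, since mug8, mug10 and rec8 had as many motifs as mcp7 and were not called. A match is a description of the letters and not a measured binding site.

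mei4, the forkhead transcription factor gene of meiosis, had the highest of these islands at 4.13, 4.29 and 4.66 over 8 probes (mean 4.36, SE 0.115, limma adjusted p = 2.9e-06). The SD of 0.27 was small beside this level. The island was 6.06, 4.86 and 4.86 kb wide on the 3 arrays and took in cdk9, a transcription elongation kinase gene, at 2.23, 2.07 and 1.99 on one side. On the other side the actin gene act1 was at 0.81, 0.88 and 1.04 and was not called. ssm4, a microtubule-binding protein gene of meiosis, had 3.21, 3.38 and 3.65 (mean 3.41, adjusted p = 3.77e-06 with limma), with but1 beside it at 1.75. mcp7, a meiotic recombination gene, had 2.80, 2.88 and 3.41 and shared its island of 3.06 kb on every array with ubp8, a ubiquitin protease gene of the SAGA complex, at 2.37, 2.33 and 2.49. num1, also known as mcp5, anchors dynein in meiosis and had 1.72, 2.30 and 1.80. mug9 had 1.58, 2.66 and 1.56. On the last 2 of these genes series 2 was the highest array, whereas series 3 was the highest on the first 3. In all, 5 of the 12 genes listed as Mmi1 targets were called, against 6.99% of all genes, and their median was 0.26 beside -0.03 over all genes. The other 7 ran from -0.35 in spo4 to 0.39 in mug8.

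Other genes described for small or RNA-directed H3K9me2 domains gave fewer calls than the Mmi1 targets. Of 9 listed genes, 2 were called, beside 6.99% of all genes. At an unadjusted limma p under 0.05, 6 of the 9 were above the median and 1 was below. The called genes were pho1 at the right end of chr2 and vps29, an endosomal sorting gene, at 3.10, 3.02 and 3.24. vps29 lay inside the left side of pericentromere 1 and was no island of its own. mug45 (0.78), tht2 (0.53), tgp1 (0.39), byr2 (0.24), mcb1 (-0.01) and ctf8 (-0.46) were below 1. mbx2, a transcription factor gene, was not in the list but stood in a domain of its own, at 1.60, 1.58 and 1.23. Limma called none of 19 genes of the heterochromatin machinery (median -0.06, range -0.38 to 0.72), beside 6.99% of all genes. At an unadjusted limma p under 0.05, 3 of the 19 were above and 4 below the median, where 966 and 863 of all 4862 genes were above and below. The highest was tas3, an RNA interference complex gene, at 0.58, 0.69 and 0.89. Of 12 housekeeping genes limma called 0 (median -0.17), with 3 above and 6 below at that unadjusted p, beside the same counts over all genes. With 6.99% of all genes called, 0 calls in lists of 19 and 12 genes say little about either list.

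A high domain stood over ura4, a gene for uracil synthesis that is widely used as a reporter in heterochromatin. The labels name no reporter. ura4 had 5.61, 5.80 and 6.66 over 4 probes (mean 6.03, SE 0.196, limma adjusted p = 4.61e-06), whereas ade6, another such marker, had -0.16, 0.23 and 0.23. Series 3 was again the highest. The arrays differed in the flanks of ura4. The probes at 114901, 115201, 117001 and 117301 on chr3 had 1.22, 1.21, 1.69 and 1.09 on series 1, and 1.97, 2.73, 3.02 and 1.80 on series 3. On series 2 they had -0.42, -0.41, -0.47 and -0.19. The domain was thus 2.46 and 2.76 kb wide on series 1 and 3 but 0.96 kb on series 2, with the change from above 4 to below 0 between adjacent kept probes. The Cy3 signal of the left-most high probe, at 115501, was 1.07 over the median on series 2 but -0.34 and -2.02 on series 1 and 3. The source of the ura4 signal was not tested.

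Similar sequence elsewhere was measured for the next pair of islands, over mae2 and mae1, the malic enzyme and malate permease genes. mae2 had 5.49, 5.59 and 5.97 (mean 5.68, limma adjusted p = 2.11e-06) and mae1 had 2.94, 2.996 and 3.18. Both were high on every array. In ASM294v3, 1847 bases of the mae2 domain have a copy of 89.8% identity in SPAC212.09C, 7.44 kb from the left end of chromosome I, where 4 probes had 6.83, 6.56 and 6.39. A copy of 700 bases (88.7%) in SPAC750.08C at the right end of that chromosome had 6.80, 6.59 and 5.87. A stretch of 1283 bases of the mae1 domain has a copy of 86.8% identity in SPAC212.10, with 6.28, 6.31 and 6.89. The 2 sequences below are 100 bases of mae2 (III:275781-275880, + strand) and of its copy SPAC212.09C (I:8908-9007, - strand). They are shown because probes of either can meet DNA of the other, and capitals mark the 11 bases that differ.

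mae2: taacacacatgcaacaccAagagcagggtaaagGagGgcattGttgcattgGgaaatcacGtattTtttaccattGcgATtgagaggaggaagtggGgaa

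SPAC212.09C: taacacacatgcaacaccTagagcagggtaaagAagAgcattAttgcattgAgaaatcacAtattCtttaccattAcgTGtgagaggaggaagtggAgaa

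How much of the mae1 and mae2 signal comes from the subtelomeric copies cannot be told from these arrays. The mae1 gene was not called when probes saturated on series 3 were left out. An arm domain with no protein-coding gene, at chr2:2340001-2341860, had 2.997, 2.54 and 3.53, and copies elsewhere covered 11.9% of it. Another at chr2:2199601-2202060, beyond the mating-type region, had 1.45, 1.34 and 2.70, where series 3 stood apart.

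The Tf2 retrotransposons formed 6 domains, in which series 3 alone reached 1. The copies were Tf2-1, Tf2-3, Tf2-4, Tf2-8, Tf2-9 and Tf2-12. Each domain has a near-identical copy elsewhere over its whole length, so a probe there can read more than 1 element. Such copies in Tf2-2 (99.9% identity) and Tf2-7 (100%) lay in no domain, although Tf2-7 was called as a gene, at 0.545, 0.69 and 2.03. Heights of the 6 domains were 0.50 to 0.80 on series 1 and 0.61 to 0.82 on series 2, but 1.78 to 2.66 on series 3. Their whole-cell extract signal was 3.33 to 3.77 log2 units over the median Cy3 on series 1, above the Cy3 ceiling of series 3, which was 1.99. On series 3 it was 1.41 to 1.68, and 87.5% to 100% of the probes were saturated in Cy3. Without saturated probes 1 probe remained, and on series 3 it had 0.31. The domain at gsf2, a cell-surface flocculin gene, had the same order, at 0.88, 1.31 and 2.37 with 85.7% of its probes saturated in Cy3 on series 3. Without saturated probes it had 0.65, 1.10 and 1.06, so series 3 was no longer the highest.

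**Figure D5:**
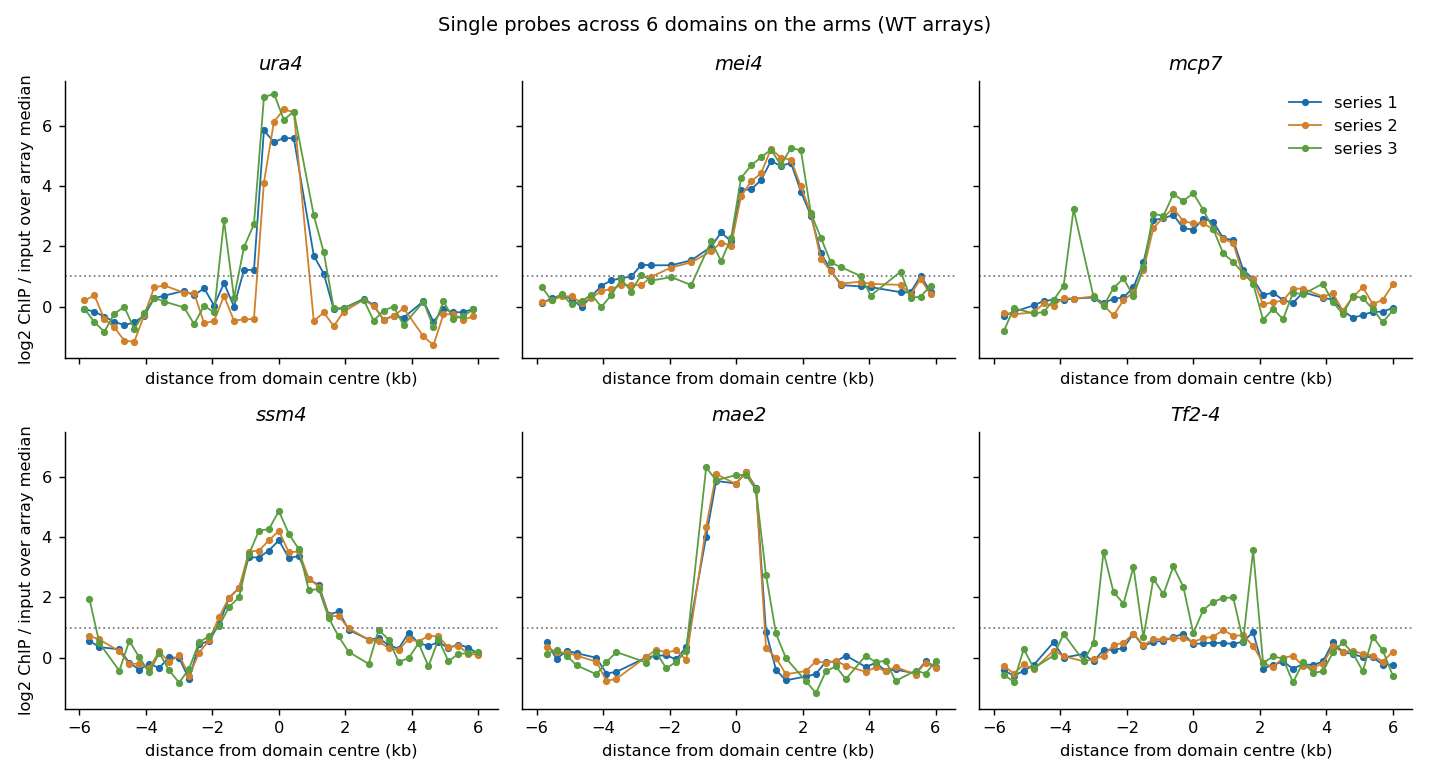
Single kept probes within 6 kb of the centre of 6 domains on the arms, as log2 ChIP over input relative to the array median, for series 1, 2 and 3. The islands at mei4, mcp7 and ssm4 have a similar shape on all arrays. The edges of mae2 are higher on series 3, at 0.86, 0.32 and 2.75 at 0.9 kb right of the centre. The flanks of ura4 are above 1 on series 1 and 3 only, and Tf2-4 is above 1 on series 3 only.

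Over all 63 domains, series 3 was the highest array in 49, series 2 in 9 and series 1 in 5. Domains were called on the mean of the 3 arrays, so a run high on series 3 alone could become a domain. The counts over domains given here are therefore partly fixed by that rule. Without series 3, 50 of the 63 domains were overlapped by a domain. Series 3 exceeded the mean of the other arrays by a median of 0.29 over the 63 domains. Over all windows its median deviation was 0.01, which the centring of each array on its median largely fixes. Series 3 deviated by at least 1 in 12 domains, series 1 in 3 and series 2 in 2. The 12 were the 6 Tf2 copies, both ends of chr3, the right end of chr1, ura4, gsf2 and chr2:2199601-2202060. Among windows in domains, 64 of 584 were at least 1 higher on series 3 than the mean of the others, against 21 of 5646 windows outside. The mean over the pericentromeric domains was 2.63, 2.78 and 2.97 on series 1, 2 and 3. After division by each array's own pericentromeric mean, series 3 was the highest in 31 domains.

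The arrays differed in their technical state along with these heights. Series 1 and 2 had been read with 1 version of the Feature Extraction software and had no saturated probe, while series 3 had been read with another and had 3.79% saturated probes. Non-uniform features were 0.732%, 0.344% and 12.3% of the probes. Median Cy3 signal was 19.8, 94.0 and 208 times its local background, and median Cy5 signal 29.5, 28.5 and 100.3 times. Mitochondrial probes averaged -1.91, -2.18 and 0.04. Across kept probes the correlation of log2 ratios was 0.947 between series 1 and 2, 0.882 between 1 and 3 and 0.866 between 2 and 3, and among probes with a mean below 1 it was 0.729, 0.348 and 0.315. These are correlations across probes of shared sequence, given as a description. Series, scanner software and saturation change together, so their parts in the differences between arrays cannot be told apart.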

How the data were processed

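The labels alone say which 3 arrays are WT H3K9me2. These members were taken as the subject, and the domain rule, gene lists and tests were chosen, with earlier results of these data known. Per the file headers, each scanner file gives 1 spot intensity per channel, and its processed signal is background-subtracted and scaled by 1 linear dye factor per channel in Agilent Feature Extraction. The software's own column is log10 of red over green, per the file headers. The deposited value table holds an unlogged ratio, red over green, which was equal to the one computed from the scanner files' processed signals. How the authors placed the probes on the genome is not given in the sources used here.

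From these files log2 ratios were centred on the array median, with no loess or quantile step. Of 41551 probes, 5481 non-uniform and 37 dim in Cy3 on at least 1 WT array (some both) were left out. The number of arrays limits the precision. limma 3.58.1 in R 4.3.3 (lmFit and eBayes, intercept only, 2-sided, Benjamini-Hochberg) was run on 2 kb windows of at least 3 probes and on genes of at least 2, and was tested on simulated data. Orders of heights used the exact 2-sided sign-flip permutation test over 3 arrays. Array positions were placed on ASM294v3 by matching GC content to Cy3 signal, with a median deviation of 40 bp from the shift of the arm over 126 segments of 100 kb. Within centromeric repeats this placement is uncertain. Copies were sought with blastn 2.17.0. Motifs were counted on the sense strand of coding exons, where overlapping motifs would each count. Sequences are those of ASM294v3 from RefSeq. Genes named were the highest gene of each arm domain, genes at or next to the borders of wide domains, and all members of the lists of Mmi1 targets, island genes, telomere-linked helicases, mating-type genes, heterochromatin machinery, housekeeping and marker genes. Of 6 listed mating-type genes 4 were in the assembly and 1 had values, and of 2 telomere-linked helicases 1 had values. Outside this rule, atf1, but1, cdk9, gsf2, isp4, prp16, sre1, ubp8 and the copies of mae1 and mae2 were named after their values were seen.

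Alternatives were normexp background correction (offset 50, run on median instead of mean signals), the software's ratio, the deposited table, dim or non-uniform probes kept, saturated probes left out, scaling to the pericentromeric mean, other levels, window sizes, smoothing, joining and minimum lengths, limma's treat, and leaving out each array. Leaving saturated probes out of the array and class comparisons, and normexp and left-out arrays in the class comparison, were chosen after seeing the data.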

Additional observations from a re-analysis of the deposited data

How the results depend on the processing

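No paired analysis was possible because only 1 group, WT H3K9me2, entered the tests. Against 545 called windows, 1 kb windows gave 1073, 5 kb windows 227 and a level of 2 gave 301, and leaving out 1 array gave 512 to 586. Against 340 called genes a level of 2 gave 153, and leaving out 1 array gave 319 to 357. Against 63 domains, at least 8 probes gave 40, and leaving out 1 array 64 to 65, covering 1086.84 to 1190.1 kb in place of 1147.38 kb. A level of 2 covered 676.7 kb. Without series 3, 50 of the 63 domains were overlapped by a domain, and normexp found 48 and leaving out saturated probes 50 of them. A higher minimum of probes, another window size or a higher level changes these counts by construction. The count of domains highest on series 3 was 49, and 31 after division by each array's pericentromeric mean. Over all 63 domains the sign of series 3 minus the mean of the others turned in 4 with normexp, in 11 after division and, of 58 domains, in 3 without saturated probes, among them the islands of mcp7 (normexp and division), mei4 and ssm4 (division). Among domains wider than 13 kb it turned at the left end of chr1 (0.26, and -0.051 with normexp or -0.07 after division), the left side of pericentromere 1 (0.21, and -0.005 with normexp or -0.073 after division), the left end of chr2 (0.29, and -0.1 with normexp) and both sides of pericentromere 3 (0.21 and 0.18, and -0.065 and -0.078 after division). The cause was not tested. Of 118 named genes with values 60 were called, 34 of them under every alternative, and no gene changed sign while called. Of 1284 alternative values for these genes, 41 lost the call (25 with treat, 8 without series 3, 6 with normexp) and 6 gained it. Among the lost were mae1 without saturated probes, and 4 Tf2 genes, mde6, SPAC1039.01, SPAC1039.03 and SPAC922.04 without series 3. The count of neighbouring classes that differed was 5, and it was 6 with normexp, 4 without saturated probes and 5 to 7 without 1 array. Values of probes saturated on series 3 are bounds.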

Other observations

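Single probes that stood alone were counted apart from domains. On the chromosomes, 39 kept probes were at least 2 on every array while both neighbours within 600 bp had means below 1, and 13 of them were at least 4 on every array. Their medians were 3.66, 5.42 and 5.40 on series 1, 2 and 3, with series 1 the lowest. Series 2 was the highest array at 22 of them, series 3 at 15 and series 1 at 2. A probe in cid14, a poly(A) polymerase gene, had 6.21, 7.64 and 6.43, with neighbours at -0.40 and -0.24. Of the 39, 30 were saturated in Cy5 on series 3, and the Fft3-GFP array, with another antibody, had a median of 0.31 over them. Of the 20 called genes outside domains, 7 hold such a probe, among them rps1701 (mean 2.88), rpb7 (1.86), cdc8 (1.48) and SPAC25B8.10 (1.31). This overlap is partly built in, since 1 such probe can raise the mean of a gene with few probes to the level of 1. The share of all genes that hold such a probe was not counted. The origin of these probes' signal was not tested.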
